A study of Mus musculus with 6 samples.

Results

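Haematopoietic stem cells (HSCs) are held in the bone marrow by receptors on their surface, and 10 genes for such receptors are described here. They are Cxcr4, the integrin genes Itga4, Itga5, Itga6, Itga9, Itgav and Itgb1, and Cd44, Selplg and Robo4. The genes were chosen by name, and each symbol was matched to 1 mouse Ensembl gene. They make up 10 of the 49585 genes with a count in each library, and all 10 passed the filter on low counts. The libraries are bulk RNA sequencing of HSCs sorted from the bone marrow of untreated C57BL/6 mice aged 8 to 16 weeks. The gate was Lin-, Kit+, Sca-1+, CD48-, CD150+, CD34- and CD201+, and the cells inside it were divided into a CD38hi fraction (CD38 pos, 3 libraries) and a CD38lo fraction (CD38 neg, 3 libraries). CD38 is a surface enzyme that consumes NAD. Cells of 10 mice went into each library, so a library is a pool and no animal was measured alone. The design text joins the libraries into 3 pairs, each with 1 library of either population, and leaves unsaid whether paired libraries share their mice. No gene was deleted and no agent was given in either group.

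CXCR4 is the receptor for the chemokine CXCL12, which stromal cells of the marrow secrete and which draws stem cells to the niche and retains them there. Integrins are dimers of an alpha and a beta subunit: the beta-1 chain pairs with alpha-4 to bind VCAM-1 and fibronectin, with alpha-5 to bind fibronectin, with alpha-6 to bind laminin and with alpha-9 to bind matrix proteins such as osteopontin and tenascin-C. PSGL-1, the product of Selplg, rolls on selectins of the vessel wall, CD44 binds hyaluronan, and ROBO4 is a guidance receptor found on endothelium and on HSCs.

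The libraries held 16771180 to 18558610 counts each, and 3 counts correspond to 0.16 to 0.18 CPM (reads per 1000000, scaled by TMM). Libraries of 1 population had Spearman correlations of 0.970 to 0.976 over the 14785 genes tested. They differed by more than sampling noise, with a chi-square per degree of freedom of at least 47.4, and were kept as separate replicates. Cd38 itself, on which the cells were divided, had read counts of 617, 819 and 1057 in CD38-positive libraries and 406, 641 and 391 in their partners, higher in 3 of 3 pairs. Transcripts of the 4 positive markers of the sort were present in every library: Kit had 1939 to 10003 reads, Ly6a (Sca-1) 1085 to 2627, Slamf1 (CD150) 373 to 913 and Procr (CD201) 554 to 1223. Transcripts of Cd48, Cd34 and Flt3, which the gate or textbook knowledge places on other cells, were also present. They took 0.0320% to 0.0434% of counts, against 0.0233% to 0.0846% for the 4 positive markers. A list of 14 granulocyte and monocyte genes took 8.19% to 15.8% of counts, and each of the 14 was detected. PSGL-1, CD44 and the leukocyte integrins are also made by granulocytes, and how much of each receptor's level came from such RNA was not tested. Of 10 cell marker lists, that of 12 B and plasma cell genes alone had its share on 1 side in all 3 pairs. It took 0.0361% to 0.0961% of counts in the CD38-positive and 0.130% to 0.274% in the CD38-negative libraries, and the exact permutation p was 0.25. The median log2 fold change of its genes was 0.46, -0.41 and -0.77 in the 3 pairs, so in pair 1 the sum and the median gene differed in sign. Its part in the receptor levels was not tested.

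With edgeR (quasi-likelihood test, pair as a replicate block), 0 of the 10 receptor genes passed the Benjamini-Hochberg threshold of 0.05. The same test called 0.0135% of all genes. The smallest unadjusted p-value of the 10 was 0.172, for Cxcr4, and no adjusted value was below 0.930. With 0.05 set on unadjusted p-values, 0 of the 10 qualified, where the share over all genes was 5.08%. Fitted log2 fold changes of CD38-positive over CD38-negative cells were positive for 3 of the 10 (50.1% of all genes) and negative for 7, with a median of -0.06 against 0.00 over all genes tested. Leaving out a pair moved the median of the 10 between -0.24 (without pair 3) and 0.10 (without pair 2). Cd44 and Selplg lay above the partner library in all 3 pairs, and no gene lay below it in all 3. Agreement of the sign over the 3 pairs was thus seen for 2 of 10 genes, where 24.5% of all genes had it and 13.2% had it with the CD38-positive library higher. In 0 of the 10 did the 3 libraries of one population lie apart from those of the other, against 6.53% of all genes. In bulk libraries, fewer cells of a type and less RNA per cell cannot be told apart.

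**Figure D1:**
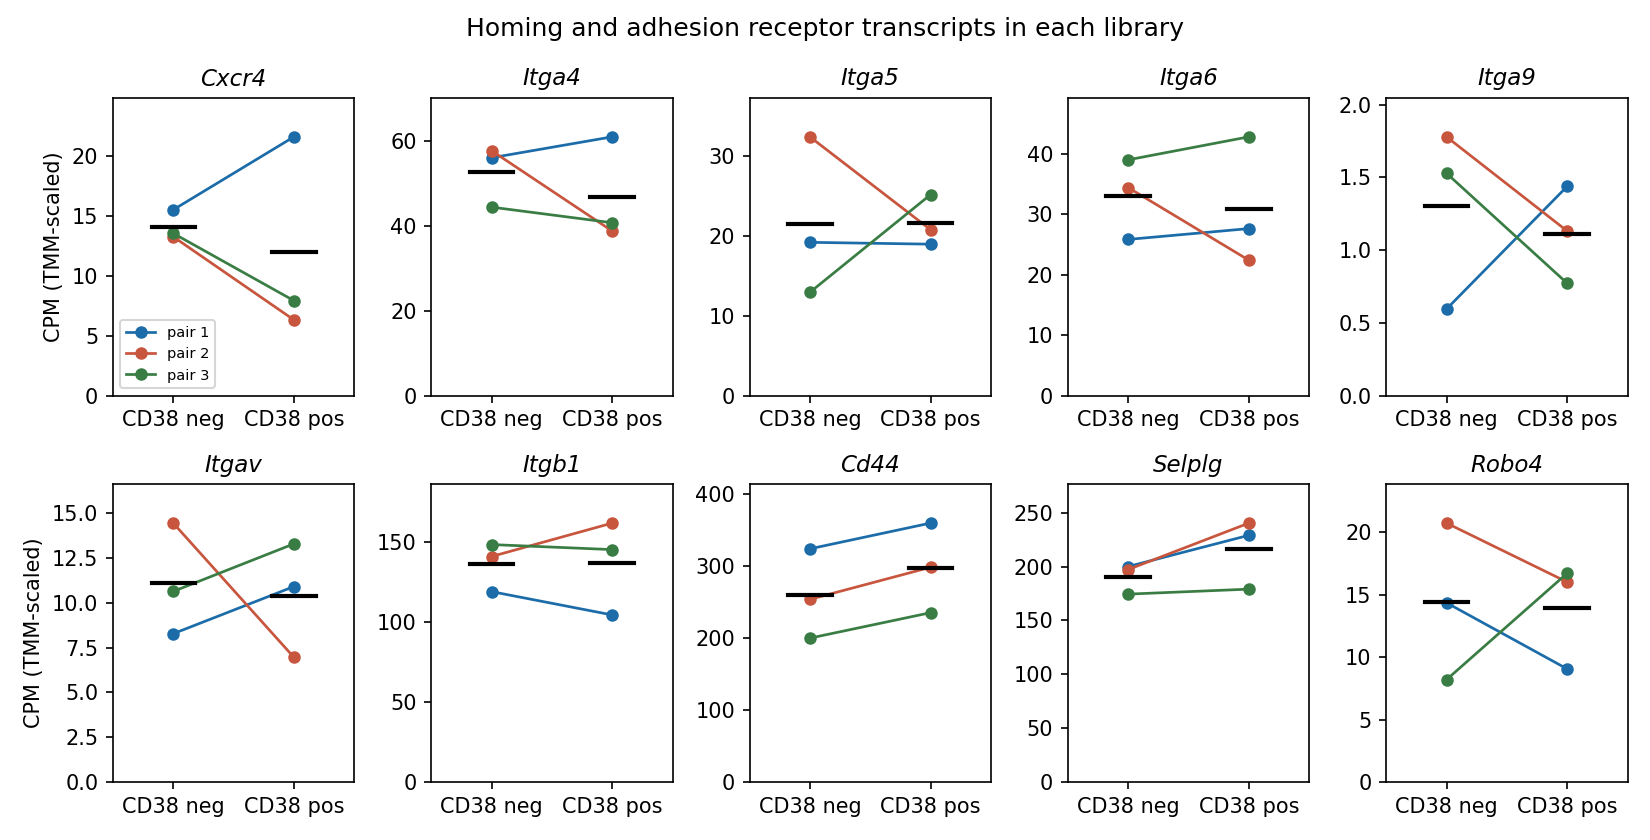
CPM of the 10 receptor genes in each library, with CD38-negative libraries on the left and CD38-positive on the right of each panel. Lines join the libraries of a pair, black bars are population means (n = 3), and only the lines of Cd44 and Selplg slope upward in all 3 pairs.

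The precision of the comparison differed between the genes. The 95% interval of the log2 fold change had a half-width of 0.40 on the log2 scale for Itgb1, Cd44 and Selplg, the most abundant transcripts of the set, and of 1.20 for Itga9, the scarcest. For 8 of the 10 genes the interval lay inside a 2-fold difference in either direction. It reached past it for Cxcr4, whose lower bound was -1.11, and for Itga9, whose interval ran from -1.37 to 1.03. A p-value that misses the threshold does not show that the populations are alike. At this depth and number of libraries, differences inside these intervals could not be detected. The intervals are not adjusted for the number of genes tested, so larger differences could be missed too. Jam2, described further on, had an interval of 0.45 to 1.53 and was not called (edgeR adjusted p = 0.695).

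**Figure D2:**
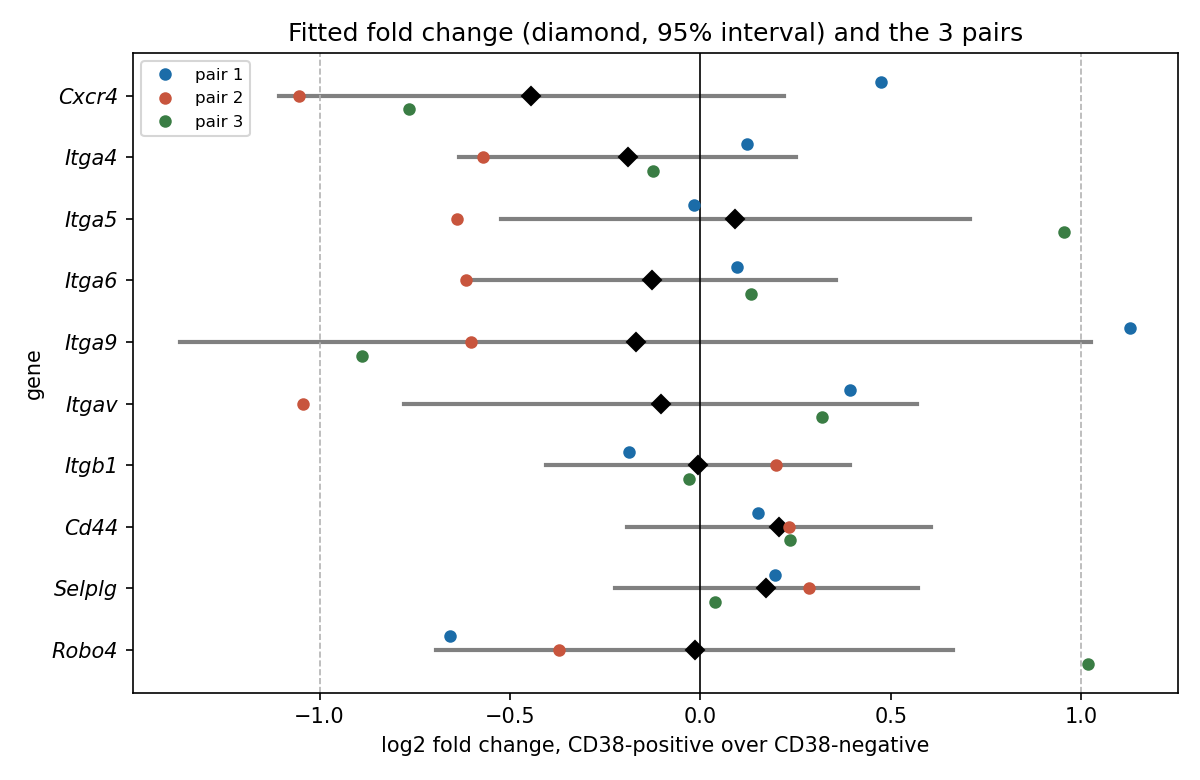
Log2 fold change of CD38-positive over CD38-negative cells for each receptor gene. Diamonds and grey bars are the edgeR fit and its 95% interval, coloured points are the 3 pairs, dashed lines mark a 2-fold difference, and every interval includes 0.

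Cxcr4 (ENSMUSG00000045382, GRCm38 chromosome 1, 128588199 to 128592293, minus strand) encodes the CXCL12 receptor. Its read counts were 361, 112 and 144 in pairs 1, 2 and 3 of the CD38-positive population, and 261, 239 and 222 in the CD38-negative partners. In CPM the values were 21.6, 6.34 and 7.94 against 15.5, 13.3 and 13.6. The 3 CD38-negative libraries lay close together, while CD38-positive replicate 1 was the highest of the 6 libraries and the other CD38-positive libraries were the lowest. The mean was 12.0 ± 8.41 CPM (SD, n = 3) among CD38-positive and 14.1 ± 1.23 CPM (SD, n = 3) among CD38-negative cells. The coefficient of variation (SD over mean) was 70.2% in the former and 8.68% in the latter.

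The fitted log2 fold change of Cxcr4 was -0.44 (SE 0.31, edgeR adjusted p = 0.930), and the pairs gave 0.47, -1.05 and -0.76. Pair 1 thus ran against the other pairs. Without pair 1 the log2 fold change was -0.92, with an unadjusted edgeR p-value of 0.0173 and an adjusted p-value of 0.558. In that fit 8.06% of all genes had an unadjusted edgeR p-value under 0.05. Without pair 2 the log2 fold change of Cxcr4 was -0.14, and without pair 3 it was -0.28. Without the replicate block it was -0.24 (edgeR adjusted p = 0.994).

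The summed share of granulocyte and monocyte genes, whose cells also express Cxcr4, differed between the libraries of a pair in the same direction as Cxcr4. It was 15.8% in the CD38-positive and 12.5% in the CD38-negative library of pair 1. It was 8.19% against 9.23% in pair 2 and 10.9% against 13.3% in pair 3. The difference in percentage points was 3.26, -1.03 and -2.47 in the 3 pairs. The mean share was 11.6% ± 3.86 (SD, n = 3) and 11.7% ± 2.17 (SD, n = 3). The exact permutation test within pairs, two-sided, gave p = 1, where 3 pairs cannot give less than 0.25. Gene by gene the pattern was another, since the median log2 fold change of the 14 genes was 0.48, 0.27 and -0.32 in the 3 pairs and 11 of them had positive fitted values. The summed shares of erythroid genes (differences of 0.0722, -0.291 and -0.173 percentage points), of T and NK cell genes (0.0106, -0.00543 and -0.0125) and of mitochondrially encoded genes (0.595, -2.30 and -1.74) had the signs of Cxcr4 in the 3 pairs too. The part of any of these shares in the Cxcr4 level was not tested.

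**Figure D3:**
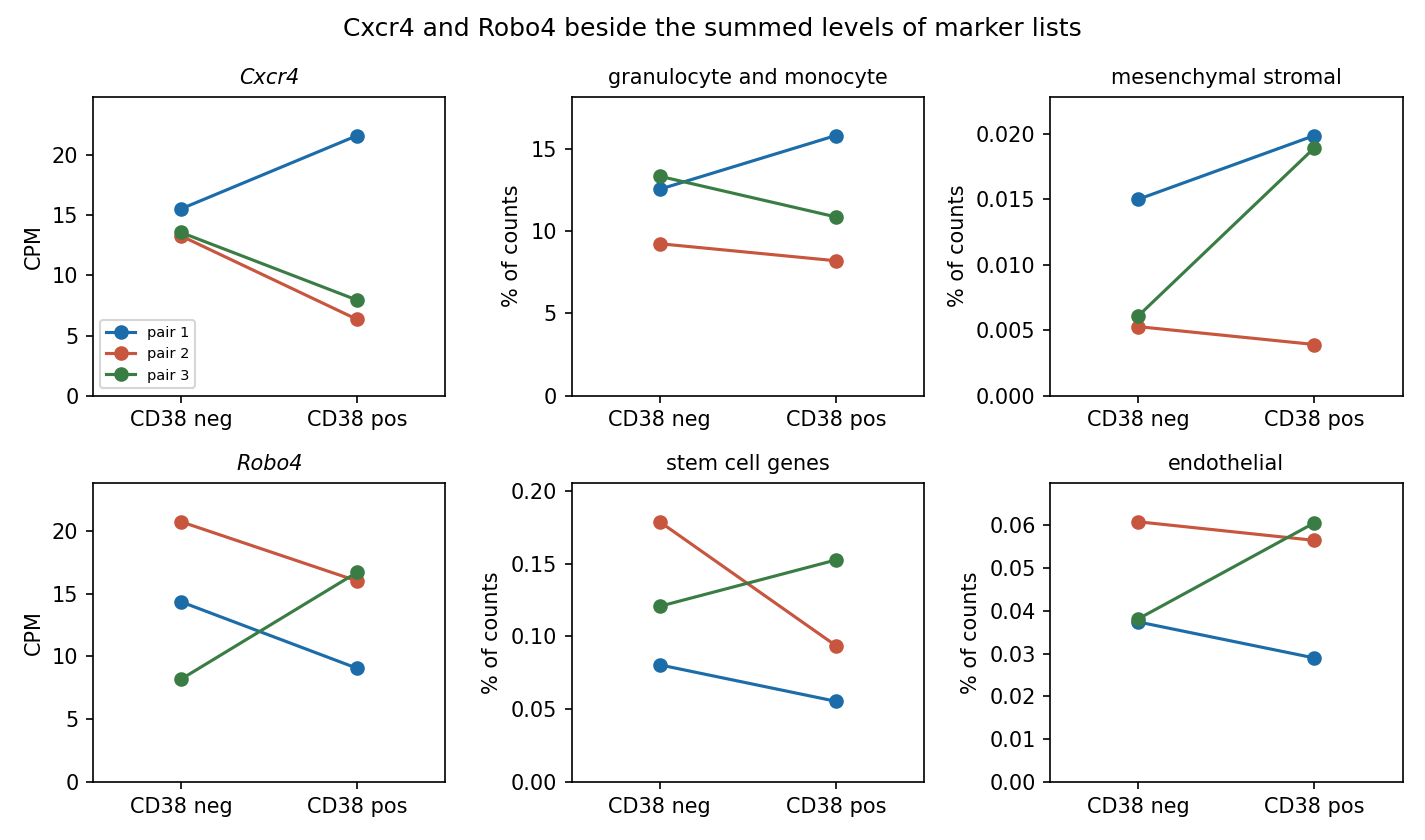
CPM of Cxcr4 and Robo4 beside the share of counts taken by 4 marker lists, in CD38-negative (left) and CD38-positive (right) libraries, with lines joining the pairs. In summed share, the granulocyte and monocyte share slopes the way of Cxcr4 in each pair and the stem cell and endothelial shares the way of Robo4, which the median granulocyte gene (pair 2) and endothelial gene (pairs 1 and 2) did not.

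Genes around CXCR4 were described from a list of 30 signalling and desensitisation genes, of which 27 were tested. None passed the adjusted threshold, 15 had positive and 12 negative fitted fold changes, and the median log2 fold change was 0.03, or 0.13 without pair 1 and -0.04 without pair 3. An unadjusted edgeR p-value under 0.05 was reached by 4 (14.8%, beside 5.08% of all genes), 2 in each direction. Rgs1, a GTPase-activating protein that shuts off signalling from chemokine receptors, was at 35.9 ± 16.2 CPM (SD, n = 3) among CD38-positive and 66.3 ± 14.8 CPM (SD, n = 3) among CD38-negative cells. Its CPM was 33.3, 21.2 and 53.2 in the CD38-positive libraries and 49.3, 73.3 and 76.2 in their partners. Its log2 fold change was -0.95 (SE 0.25), and it lay lower in 3 of 3 pairs, with an unadjusted edgeR p-value of 0.00212 and an adjusted one of 0.764. Only the fit without a filter on low counts called it, at an adjusted p-value of 0.0196, and without pair 2 its log2 fold change was -0.55. Pik3r5, a regulatory subunit of the phosphoinositide 3-kinase that G proteins activate, had 0.76, and Rgs2 had 0.49. Ackr3, the other receptor for CXCL12, had 0 to 3 reads per library and was not tested.

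Itga4 (ENSMUSG00000027009, chromosome 2, 79255426 to 79333123, plus strand) encodes the alpha-4 chain of the VCAM-1 receptor VLA-4. It had 1018, 686 and 739 reads on the CD38-positive side and 942, 1039 and 727 in their partners. The mean was 46.9 ± 12.3 CPM (SD, n = 3) versus 52.8 ± 7.25 CPM (SD, n = 3). The log2 fold change was -0.19 (edgeR adjusted p = 0.943, SE 0.21), and pairs gave 0.12, -0.57 and -0.12. The populations overlapped, and pair 2 held the largest gap between partners. The gene Cerkl on the opposite strand overlaps Itga4 and had 1454 reads in all 6 libraries, so that without a stated strand setting some reads of the region could not be assigned with certainty.

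Itga5 (ENSMUSG00000000555, chromosome 15, 103344286 to 103366763, minus strand), for the alpha-5 chain of the fibronectin receptor, had 317, 368 and 457 reads in CD38-positive and 323, 584 and 212 in CD38-negative libraries. Both the highest and the lowest level were found in CD38-negative libraries, at 32.5 CPM in replicate 2 and 13.0 CPM in replicate 3. The pair values on the log2 scale were -0.02, -0.64 and 0.95, and the fitted value was 0.09 (SE 0.29, edgeR adjusted p = 0.978). It was -0.33 without pair 3 and 0.46 without pair 2.

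Itga6 (ENSMUSG00000027111, chromosome 2, 71745616 to 71858416, plus strand), for the laminin-binding alpha-6 chain, had 461, 396 and 776 reads in CD38-positive libraries and 434, 619 and 638 in their partners. Levels were 31.0 ± 10.6 CPM (SD, n = 3) and 33.1 ± 6.68 CPM (SD, n = 3). The libraries of pair 3 were the highest of their populations, at 42.8 and 39.0 CPM, so the level differed more between pairs 1 and 3 than between the partners in either of them. The fitted log2 fold change was -0.13 (edgeR adjusted p = 0.963, SE 0.22) and the pair values were 0.10, -0.62 and 0.13. Without pair 2 the fitted value was 0.10.

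Itgav (ENSMUSG00000027087, chromosome 2, 83724397 to 83806916, plus strand) encodes the alpha-v chain, which joins several beta chains in receptors for vitronectin, fibronectin and other matrix proteins. Read counts were 182, 123 and 241 in CD38-positive and 139, 260 and 174 in CD38-negative libraries. The pair values were 0.39, -1.04 and 0.32, around a fitted log2 fold change of -0.10 (edgeR adjusted p = 0.977, SE 0.31). Without pair 2 the fitted value was 0.35. As with Itga6, pair 2 alone lay below 0.

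Itga9 (ENSMUSG00000039115, chromosome 9, 118606690 to 118901003, plus strand), for the alpha-9 chain, was close to the limit of what could be measured. It had 24, 20 and 14 reads on the CD38-positive side and 10, 32 and 25 in their partners. The exact Poisson 95% interval for 10 reads is 4.80 to 18.4 and that for 32 reads is 21.9 to 45.2, so the extremes of the CD38-negative libraries differed by more than counting error. Such intervals cover counting error only. The fitted log2 fold change was -0.17 (edgeR adjusted p = 0.979, SE 0.56), with pair values of 1.13, -0.60 and -0.89. It was -0.81 without pair 1, 0.09 without pair 2 and 0.23 without pair 3. The antisense gene Gm2415 over the same locus had 34 reads in all.

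Itgb1 (ENSMUSG00000025809, chromosome 8, 128685654 to 128733200, plus strand) encodes the beta-1 chain that the alpha-4, alpha-5, alpha-6, alpha-9 and alpha-v chains can all join. Read counts were 1745, 2866 and 2638 in CD38-positive and 2002, 2540 and 2432 in CD38-negative libraries. Levels were 137 ± 29.6 CPM (SD, n = 3) and 136 ± 15.3 CPM (SD, n = 3). The log2 fold change was -0.01 (95% interval -0.41 to 0.39, edgeR adjusted p = 0.998), and its sign turned without the block, without pair 1 and without pair 3. The libraries of pair 1 were the lowest of either population, at 105 and 119 CPM, and the other 4 libraries lay between 141 and 162 CPM.

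Other integrin genes were described from a list of 21 subunits. Of these 13 were tested and 8 were too scarce, with at most 27 reads in any library and with Itgb8 at 0 in all. None passed the adjusted threshold, 9 of the 13 had positive fitted values, and the median log2 fold change was 0.23. That median was 0.06 without pair 1 and 0.12 without pair 3. The 3 that kept one sign in all pairs were Itgad at 0.94, Itgb2 at 0.35 and Itgb4 at -0.60. Itgb4 had only 11 to 31 reads per library (unadjusted edgeR p-value 0.271). Itgad, which encodes an alpha chain of the beta-2 integrins, had 134, 285 and 154 reads in CD38-positive libraries and 127, 70 and 84 in their partners (unadjusted edgeR p-value 0.0190, adjusted 0.925). Without pair 2 its log2 fold change was 0.39. Itgb2, the beta-2 chain of leukocyte integrins, was at 551 ± 119 CPM (SD, n = 3) versus 437 ± 118 CPM (SD, n = 3). Its log2 fold change was 0.35 (95% interval -0.08 to 0.78, edgeR adjusted p = 0.926).

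The chains that could take the place of beta-1 differed in level. Itgb7, the beta-7 chain that joins alpha-4 to bind MAdCAM-1, had 165, 902 and 683 reads in CD38-positive and 260, 657 and 346 in CD38-negative libraries. Its CPM spanned a 5.16-fold range, and the libraries of pair 1 were the lowest of either population. Its log2 fold change was 0.25 (95% interval -0.34 to 0.83, edgeR adjusted p = 0.943). Itgb3, a partner of alpha-v and, in platelets, of the chain encoded by Itga2b, had 257 to 581 reads and a log2 fold change of -0.14. Its pair values of 0.12, -1.15 and 0.57 had the signs of those of Itgav. Itgb5, another partner of alpha-v, had 9 to 62 reads. Itga2b was nearly level, with pair values of -0.03, 0.03 and 0.04.

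Selplg (ENSMUSG00000048163, chromosome 5, 113818536 to 113832644, minus strand) encodes PSGL-1, the main selectin ligand of blood cells. Read counts were 3823, 4251 and 3247 in CD38-positive and 3361, 3550 and 2854 in CD38-negative libraries. In CPM these were 229, 241 and 179 against 200, 197 and 174. Each CD38-positive library lay above its partner, but CD38-positive replicate 3 lay below CD38-negative replicates 1 and 2. The mean was 216 ± 32.7 CPM (SD, n = 3) versus 191 ± 14.1 CPM (SD, n = 3). The log2 fold change was 0.17 (95% interval -0.23 to 0.57, edgeR adjusted p = 0.943), with pair values of 0.20, 0.29 and 0.04.

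Selectin binding needs sugars on PSGL-1, and 21 genes for the enzymes that build them and for other sialomucins were all tested. None passed the adjusted threshold and 0 had an unadjusted edgeR p-value under 0.05, beside 5.08% of all genes. Positive fitted values were found for 11 and negative ones for 10, with a median log2 fold change of 0.00. One sign in all pairs was kept by 2, among them C1galt1, the enzyme that extends O-glycans, at -0.46. C1galt1 was at 17.3 CPM in CD38-positive and 23.3 CPM in CD38-negative cells. Without pair 2 its log2 fold change was -0.15.

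Cd44 (ENSMUSG00000005087, chromosome 2, 102811141 to 102901665, minus strand) encodes the hyaluronan receptor. Read counts were 6001, 5273 and 4263 in CD38-positive and 5440, 4563 and 3268 in CD38-negative libraries. In CPM these were 360, 298 and 235 against 324, 254 and 200. Pair 1 was the highest and pair 3 the lowest in both populations, and each CD38-positive library lay above its partner. The pair values were 0.15, 0.23 and 0.24 on the log2 scale, with an SD of 0.05, the smallest of the 10 genes. The fitted log2 fold change was 0.21 (SE 0.19, 95% interval -0.19 to 0.61), and the edgeR p-value was 0.285 unadjusted and 0.936 adjusted. The fit shares information on the spread between genes, so its SE is not the SD of the 3 pair values alone. Leaving out a pair moved the log2 fold change between 0.18 and 0.23. Counts per gene do not separate the splice forms of CD44.

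Of 19 genes for other hyaluronan receptors, hyaluronan enzymes and proteins that link CD44 to the cytoskeleton, 16 were tested and none passed the adjusted threshold. An unadjusted edgeR p-value under 0.05 was reached by 2 higher and 1 lower gene (18.75%, beside 5.08% of all genes). The median log2 fold change was 0.02. The higher genes were Stab2, a scavenger receptor of sinusoidal endothelium, at 0.93, and Ezr, which encodes the linker ezrin, at 0.60. The lower gene was Adam10 at -0.63, with pair values of -0.53, -1.61 and 0.25. Stab1, another scavenger receptor of this endothelium, had 0.81 but did not reach 0.05 (unadjusted edgeR p-value 0.0820). It had only 14 to 45 reads per library. Stab2 had 56, 74 and 104 reads in CD38-positive libraries and 37, 36 and 43 in their partners, and the populations did not overlap (unadjusted edgeR p-value 0.0199, adjusted 0.925). In the list of 18 endothelial genes, which includes Stab2, 15 were tested, 12 had positive fitted values (50.1% of all genes) and 0 passed the adjusted threshold. An unadjusted edgeR p-value under 0.05 was reached by 5 (5.08% of all genes), all higher: Ramp2, Cldn5, Flt1, Sox18 and Stab2. The summed share of the list was lower in the CD38-positive library in pairs 1 and 2 and higher in pair 3 (differences of -0.00843, -0.00435 and 0.0225 percentage points). The part of endothelial RNA in the Stab2 value, or in those of Selp and Jam2 given further on, was not tested. For Ezr the pair values were 0.06, 1.46 and 0.29, and without pair 2 the fitted value was 0.16.

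Robo4 (ENSMUSG00000032125, chromosome 9, 37401897 to 37415115, plus strand) had 151, 283 and 303 reads in CD38-positive and 241, 373 and 134 in CD38-negative libraries. In CPM these were 9.05, 16.0 and 16.7 against 14.4, 20.7 and 8.19. The CD38-positive library lay below its partner in pairs 1 and 2 and above it in pair 3, by -0.66, -0.37 and 1.02 on the log2 scale. These opposed values gave a fitted log2 fold change of -0.02 (SE 0.32, 95% interval -0.69 to 0.66, edgeR adjusted p = 0.996). Without pair 3 it was -0.52, without pair 1 0.32 and without pair 2 0.17.

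The summed shares of stem cell genes and of endothelial genes differed within the pairs in the directions of Robo4. Both lists hold Tek, so they are not fully separate. A list of 11 stem cell genes took 0.0554%, 0.0936% and 0.152% of counts in the CD38-positive libraries and 0.0804%, 0.179% and 0.121% in their partners. For 18 endothelial genes the shares were 0.0290%, 0.0565% and 0.0606% against 0.0374%, 0.0608% and 0.0381%. The median log2 fold change of the stem cell genes was -0.38, -0.84 and 0.43 in the 3 pairs, with the signs of Robo4. That of the endothelial genes tested was 0.10, 0.18 and 0.85, so in pairs 1 and 2 the median gene did not have the sign of the sum. The populations overlapped for both lists, with exact permutation p-values of 0.75 and 1. None of the 18 endothelial genes was at 0 in all libraries, but the defining marker Cdh5 had only 0 to 12 reads per library and Sox17 1 read in all. The part of either cell source in the Robo4 level was not tested. Of 11 other genes of the Robo and Slit family, 5 were tested, none passed the adjusted threshold, and Robo1 and Robo2 had at most 20 and 3 reads in a library. Usp33, a deubiquitinating enzyme that binds Robo receptors, was the 1 gene of the 5 with one sign in all pairs, at -0.11. Slit2, a ligand of the family, had 1 to 14 reads.

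To compare levels between genes, CPM was divided by the length of all annotated exons in kilobases. Over the 6 libraries Selplg was the highest, at 47.6 ± 6.20 (SD, n = 6) CPM per kilobase, followed by Cd44 at 41.1 ± 8.79 (SD, n = 6) and Itgb1 at 33.5 ± 5.17 (SD, n = 6). The ranges of these neighbours overlapped, and Selplg was above Cd44 in 5 of 6 libraries and Cd44 above Itgb1 in 4 of 6. A gap followed, since every Itgb1 value lay above every value of Cxcr4, which was at 7.22 ± 3.04 (SD, n = 6) and 4.65-fold lower on average. Itga5, Itga4, Itga6 and Robo4 came next, at 4.38, 3.56, 3.55 and 2.67 CPM per kilobase. Each of these overlapped its neighbours in the order, Cxcr4 and Itga5 included. Itgav at 1.001 and Itga9 at 0.157 lay below Robo4, and here the ranges of neighbours no longer overlapped.

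On this scale of length-adjusted level, the transcript of the shared beta-1 chain stood above each of the 5 alpha chains, whose mean levels add up to 12.7 CPM per kilobase. Itgb2 was the highest of 5 other integrin genes, at 162 CPM per kilobase or 4.83-fold the level of Itgb1. It encodes the beta-2 chain of leukocyte integrins, which does not join these alpha chains. Itgb7 was at 10.3, 3.25-fold below Itgb1, Itga2b at 8.995, Itgb3 at 3.70 and Itgb5 at 0.496. Outside these 5, Itgb2l was at 58.7 and so above Itgb1. Itgal was at 13.4 and Itgam at 12.4, each above Itgb7. The length of annotated exons counts untranslated regions and rare isoforms. A gene with a long annotated tail, such as Itga4 at 13978 bases, is thus placed lower than a shorter transcript model would place it. Without division by length, mean CPM was 137 for Itgb1, 49.8 for Itga4, 32.0 for Itga6 and 21.6 for Itga5. It was 10.8 for Itgav and 1.21 for Itga9. The margin of Itgb1 over the sum of the alpha chains therefore depends on the lengths used.

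**Figure D4:**
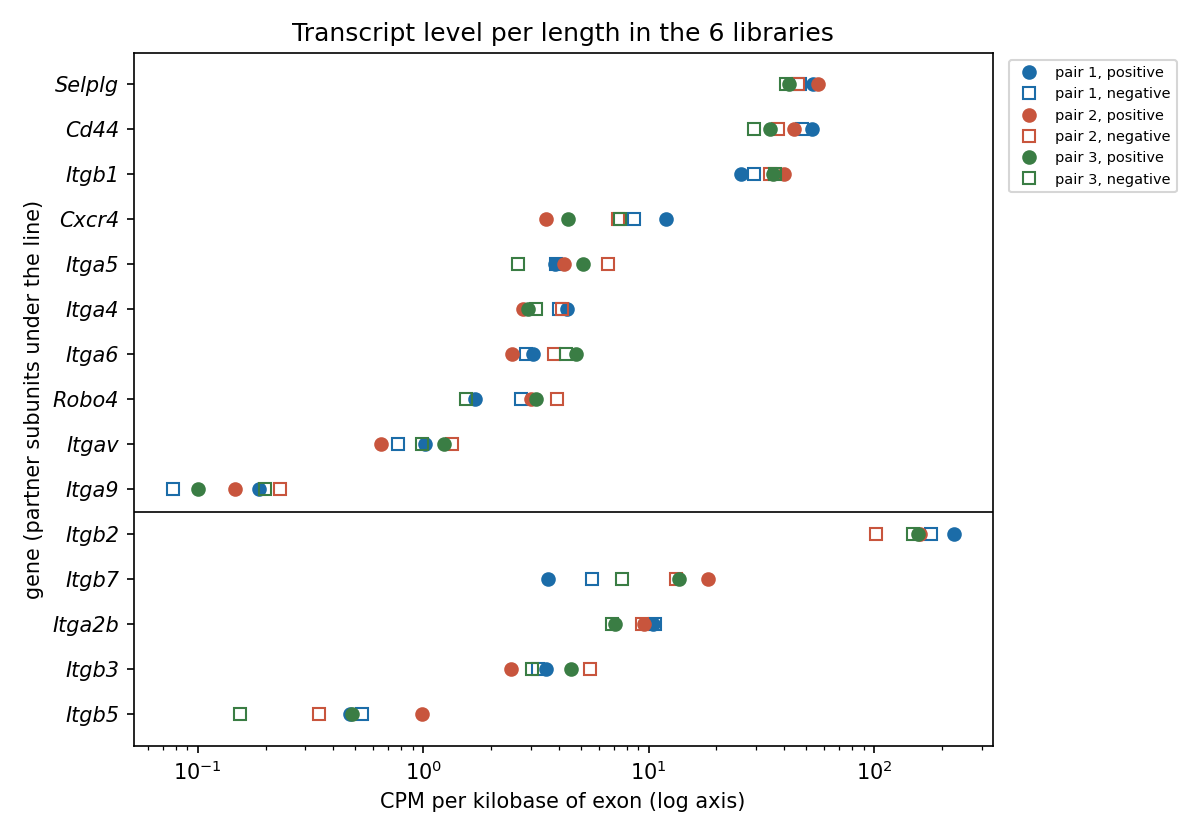
Level of the 10 receptor genes (upper block, ordered by mean) and 5 other integrin genes (lower block) in each library. Values are CPM per kilobase of exon on a log axis. Filled circles are CD38-positive and open squares CD38-negative libraries, coloured by pair, and Selplg, Cd44 and Itgb1 stand apart above the other receptors.

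Genes for the ligands of these receptors were also read, since sorted cells can carry RNA of their surroundings or express ligands themselves. Of 23 ligand genes, 17 were tested, none passed the adjusted threshold, 11 had positive fitted values, and the median log2 fold change was 0.18. It was 0.50 without pair 2 and -0.13 without pair 3. The pair medians were 0.00, -0.29 and 0.74. Fn1, fibronectin, had 277, 259 and 150 reads in CD38-positive libraries and 170, 142 and 61 in their partners, a log2 fold change of 0.91 (95% interval 0.35 to 1.47, edgeR adjusted p = 0.888). Selp, the P-selectin to which PSGL-1 binds, had 173, 222 and 352 reads against 121, 126 and 104, and its populations did not overlap. Its log2 fold change was 0.99 (95% interval 0.38 to 1.61, edgeR adjusted p = 0.888). Vcam1, the ligand of VLA-4, had 0.58, of which most came from pair 2, with pair values of 0.00, 1.57 and 0.19.

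Cxcl12, the ligand of CXCR4, varied 13.1-fold between libraries. Read counts were 2526, 205 and 2084 in CD38-positive and 1753, 397 and 422 in CD38-negative libraries, and a log2 fold change of 0.61 (95% interval -0.26 to 1.48, edgeR adjusted p = 0.929). Lepr and Adipoq, genes of the marrow stromal cells that make CXCL12, were named after their values were seen. Lepr had 61, 4 and 71 reads against 54, 10 and 16, and Adipoq 116, 2 and 97 against 90, 7 and 28. All 3 genes were high in both libraries of pair 1 and in CD38-positive replicate 3. The list of 14 stromal genes, which includes all 3, took 0.00391% to 0.0199% of counts, with an exact permutation p of 0.5 between the populations. Cxcl12 itself made up the larger part of this sum in the libraries where it was high. The sum is therefore not a measure of stromal RNA separate from Cxcl12. The part of stromal RNA in the Cxcl12 level was not tested.

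The remaining lists gave no call either, and 1 of the 9 is given in the sums alone. Of 35 genes for integrin activation and the adhesion complex, 30 were tested, 15 had positive and 15 negative values, and the median log2 fold change was 0.00. Lyn, a Src-family kinase of myeloid cells, had 0.49, of which most came from pair 2, with pair values of 0.14, 1.27 and 0.07. Without pair 2 Lyn was at 0.10. Tgfb1i1, a focal adhesion adaptor, had 1.03. Of 30 other homing and adhesion receptors 25 were tested, 10 with positive and 15 with negative values, at a median of -0.12, which was 0.01 without pair 1 and 0.02 without pair 2. Jam2, a junctional adhesion molecule, was at 21.3 ± 9.84 CPM (SD, n = 3) among CD38-positive and 10.2 ± 2.35 CPM (SD, n = 3) among CD38-negative cells, in 3 of 3 pairs higher. Its log2 fold change was 0.99 (SE 0.25), with an unadjusted edgeR p-value of 0.00155 and an adjusted one of 0.695. In this list 1 higher and 3 lower genes (16%, beside 5.08% of all genes) had an unadjusted edgeR p-value under 0.05. Adgrg1, an adhesion G protein-coupled receptor of HSCs, had -0.83 (unadjusted edgeR p-value 0.0148, adjusted 0.925). F11r, another junctional adhesion molecule, had -0.46 (unadjusted edgeR p-value 0.0457, adjusted 0.926). Each of the 2 lay lower in 3 of 3 pairs, and for Adgrg1 pair 2 alone was at -1.98.

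Over the 9 lists, 180 genes were tested, 0 passed the adjusted threshold, and 18 (10.0%) had an unadjusted edgeR p-value under 0.05, 12 higher and 6 lower. The share over all genes was 5.08%. Without the replicate block 7 of the 180 (3.89%) had an unadjusted edgeR p-value under 0.05, beside 2.82% of all genes in the same fit. One sign in all 3 pairs was found for 53 of the 180 (29.4%), beside 24.5% of all genes.

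**Figure D5:**
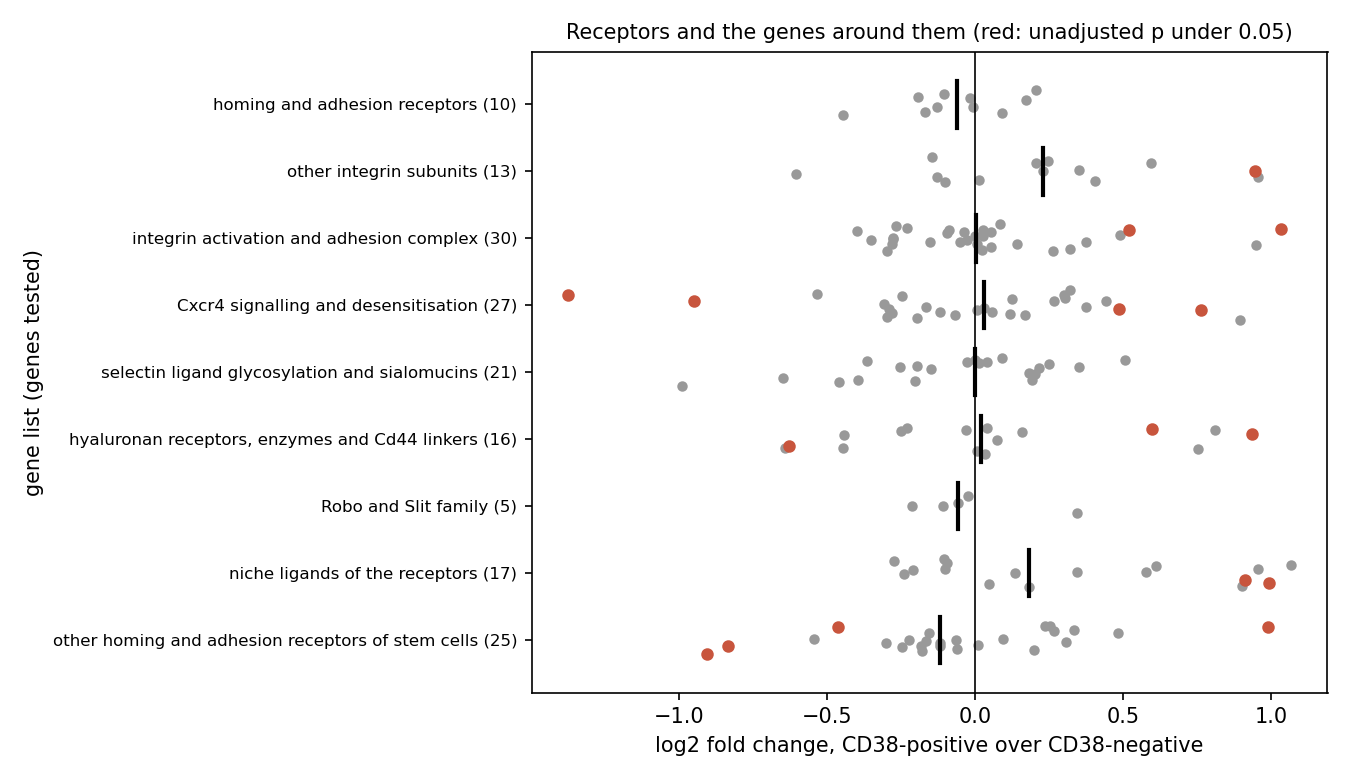
Fitted log2 fold change of CD38-positive over CD38-negative cells for each tested gene of the receptors and 8 other lists, with the number tested in parentheses and the list median as a black bar. Red points have an unadjusted p-value under 0.05, none passed the adjusted threshold, and the receptors hold no red point.

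Besides their level, the receptors differed from each other in how the pairs behaved. In pair 1, 7 of the 10 lay higher in the CD38-positive library, in pair 2 3 did, and in pair 3 6 did. The median of the 10 was 0.14, -0.59 and 0.09 in the 3 pairs, where the medians over all genes were 0.00, -0.02 and 0.03. In pair 2 the 7 genes below 0 were Cxcr4, Itga4, Itga5, Itga6, Itga9, Itgav and Robo4, at -0.37 to -1.05, while Itgb1, Cd44 and Selplg were at 0.20 to 0.29. The latter 3 held 81.3% of the summed CPM of the set, and their pair values had SDs of 0.05 to 0.20. Those of the other 7 had SDs of 0.35 to 1.09. Pair 2 was also the pair in which the 4 positive sort markers differed most, with 0.0252% of counts in the CD38-positive and 0.0846% in the CD38-negative library. Mitochondrially encoded genes took 1.44% against 3.74% of counts in this pair, and 2.69% to 4.43% in the libraries of the others. Whether these gaps had a part in the receptor values of pair 2 was not tested.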

How the data were processed

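For each of the 6 libraries the authors deposited a table that holds an unscaled read count for every one of 49585 Ensembl genes. Cutadapt, STAR, HTSeq 0.6.1p1 and the build GRCm38 are named per the submitters' processing notes; the strand setting and annotation release are not given in the sources used here. Symbols matched 49326 genes. Coordinates, overlaps and exon lengths came from GENCODE M21 (GRCm38).

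Genes were filtered with filterByExpr (14785 left), scaled by TMM and tested with the edgeR 4.0.16 quasi-likelihood F-test in R 4.3.3, as pair plus population over all 6 libraries. P-values were adjusted by Benjamini-Hochberg over all genes. CPM uses TMM-scaled library sizes, and pair values are differences of log2 CPM with a prior count of 2. Standard errors come from the quasi-F statistic and 95% intervals from its degrees of freedom. Shares of counts were compared by an exact permutation within pairs. Deviations from the population means correlated weakly between the libraries of a pair (0.34, 0.12 and 0.24). Of the 6 libraries, 5 correlated best with their own partner. The pairing itself comes from the design text. P-values measure only the spread between pools.

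Named list genes are those past the threshold. Where a list had none, up to 3 with the smallest p-values and one sign in all pairs were named. To these were added 11 ligands, receptors and integrin subunits. Other list genes (such as Itgb8, Robo1, Robo2, Cdh5 and Sox17) were named after their values were seen, and marker genes stand beside the results they touch. The receptors and lists were chosen with earlier results of these data known. Alternatives used DESeq2 1.42.0 and limma 3.58.1, other scalings and filters, no block, and each pair left out. The procedure was tested on simulated data. A few list genes and 1 list are not reported here by name.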

Additional observations from a re-analysis of the deposited data

How the results depend on the processing

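The number of receptor genes past the adjusted threshold was 0 under all 10 alternatives, and their smallest adjusted p-value ranged from 0.558 (edgeR, without pair 1) to 0.9999 (edgeR, without pair 2). At an unadjusted p-value under 0.05 the number was 0 except without pair 1, where it was 1 of the 10 (Cxcr4). In that edgeR fit 8.06% of all genes had such a p-value. Leaving out a pair thus gave 0 to 1. Without the replicate block the smallest unadjusted p-value of the receptors was 0.354, and the block changed no call among them. Of 100 alternative fold changes of the receptors, 90 kept their sign and 10 did not. With no replicate block the log2 fold change of Itgb1 was 0.011, and it was 0.085 without pair 1 and 0.0049 without pair 3. Leaving out pairs moved Itga5 from -0.33 to 0.46, Itga6 from -0.26 to 0.10, Itga9 from -0.81 to 0.23 (0.09 without pair 2), Itgav from -0.36 to 0.35, Itgb1 from -0.12 to 0.085 and Robo4 from -0.52 to 0.32 (0.17 without pair 2). Over all genes, 2 passed the threshold, against 0 with no replicate block (where 417 had an unadjusted p under 0.05), 0 when library totals were left unscaled (595), 11 with DESeq2, 7 with DESeq2 size factors, 80 with no filter and 13 with a mean of at least 10 counts. Leaving out a pair gave 2 to 41. Of the genes on the 9 lists, 4 passed with no filter, and 0 to 2 when a pair was left out. For the 24 list genes named by rule, 238 of 240 alternative fold changes kept their side of the threshold and 2 (Rgs1 and Adgrg1 with no filter) passed it. The cause of these differences was not tested. The number of libraries and, for Itga9, the depth limit what could be detected.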
